A study of Mus musculus with 6 samples.

Results

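This account covers 35 genes of glucose uptake, glycolysis, lactate handling and the response to low oxygen in mouse lungs at E14.5. They were named as a list, and each is represented by the probe set that had the highest mean over the 6 arrays among those carrying its symbol. All 35 were measured, out of 21999 gene symbols and 28815 probe sets. RNA came from whole lungs of 3 control embryos, which carried Shh-cre alone, and of 3 mutant embryos of genotype Shh-cre:Foxp1flox/flox:Foxp4flox/flox. Every embryo therefore carried the Cre driver, and the labels give a mixed background of C57BL/6 with 129X1,129S1 strains. Shh-cre recombines floxed alleles in the epithelium of the embryonic lung, so the mesenchyme, vessels, nerves and blood in the same RNA kept intact Foxp1 and Foxp4. The design text concerns secretory differentiation of the epithelium and states separate embryos, so the p-values below measure the spread between embryos. In RNA from a whole organ, fewer cells of a type and less RNA per cell cannot be told apart.

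Glycolysis splits glucose into pyruvate in the cytosol. Pyruvate either enters mitochondria through the pyruvate dehydrogenase complex or is reduced to lactate, which leaves the cell through monocarboxylate transporters. When oxygen is scarce, prolyl hydroxylases no longer mark the alpha subunits of the hypoxia-inducible factors (HIF) for destruction. The stabilised factors then raise transcription of glucose transporters, most glycolytic enzymes, pyruvate dehydrogenase kinases and stress genes, through a short DNA element with the core ACGTG or GCGTG. The embryonic lung develops at low oxygen tension, and HIF activity is known to take part in the growth of its airways and vessels.

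The deposited values are log2 expression after RMA, and a log2 change is mutant minus control. The array medians were 8.21 to 8.23, and any 2 arrays correlated at 0.9947 to 0.9985 across probe sets. Foxp4 differed by -0.41 (limma adjusted p = 0.0190) and Foxp1 by -0.27 (limma adjusted p = 0.0884), although their probe sets need not lie in the deleted exons. Lung identity was clear in the defining genes, with the epithelial factor Nkx2-1 at a mean of 11.09 and the mesenchymal factor Tbx4 at 12.28. The transcript Xist stood at 12.83 in control 3 and at 6.00 to 6.23 elsewhere, so control 3 has the pattern of a female embryo and the other 5 that of males, while the labels give no sex. This touches the X-linked Pgk1 and Pdk3, which are given with and without control 3.

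None of the 35 genes differed between mutant and control lungs by more than the test required. With limma fitted on all 28815 probe sets, 0 of 35 had an adjusted p under 0.05, where 0.774% of all probe sets did. At an unadjusted p under 0.05 there were 3, namely Pdk1, Egln3 and Slc16a1, or 8.57% against a background of 11.8%. The 3 control and 3 mutant values did not overlap for 6 genes, 17.1% of the list against 18.0% of all probe sets, which is close to the background. Ldhb, Pdk1 and Egln3 lay higher in mutants among these (7.83% of all probe sets did so), and Slc16a1, Pfkm and Eno1 lay lower (10.1%). The authors' deposited table also had 0 of the 35 at a q under 5% (1.72% of all probe sets).

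**Figure D1:**
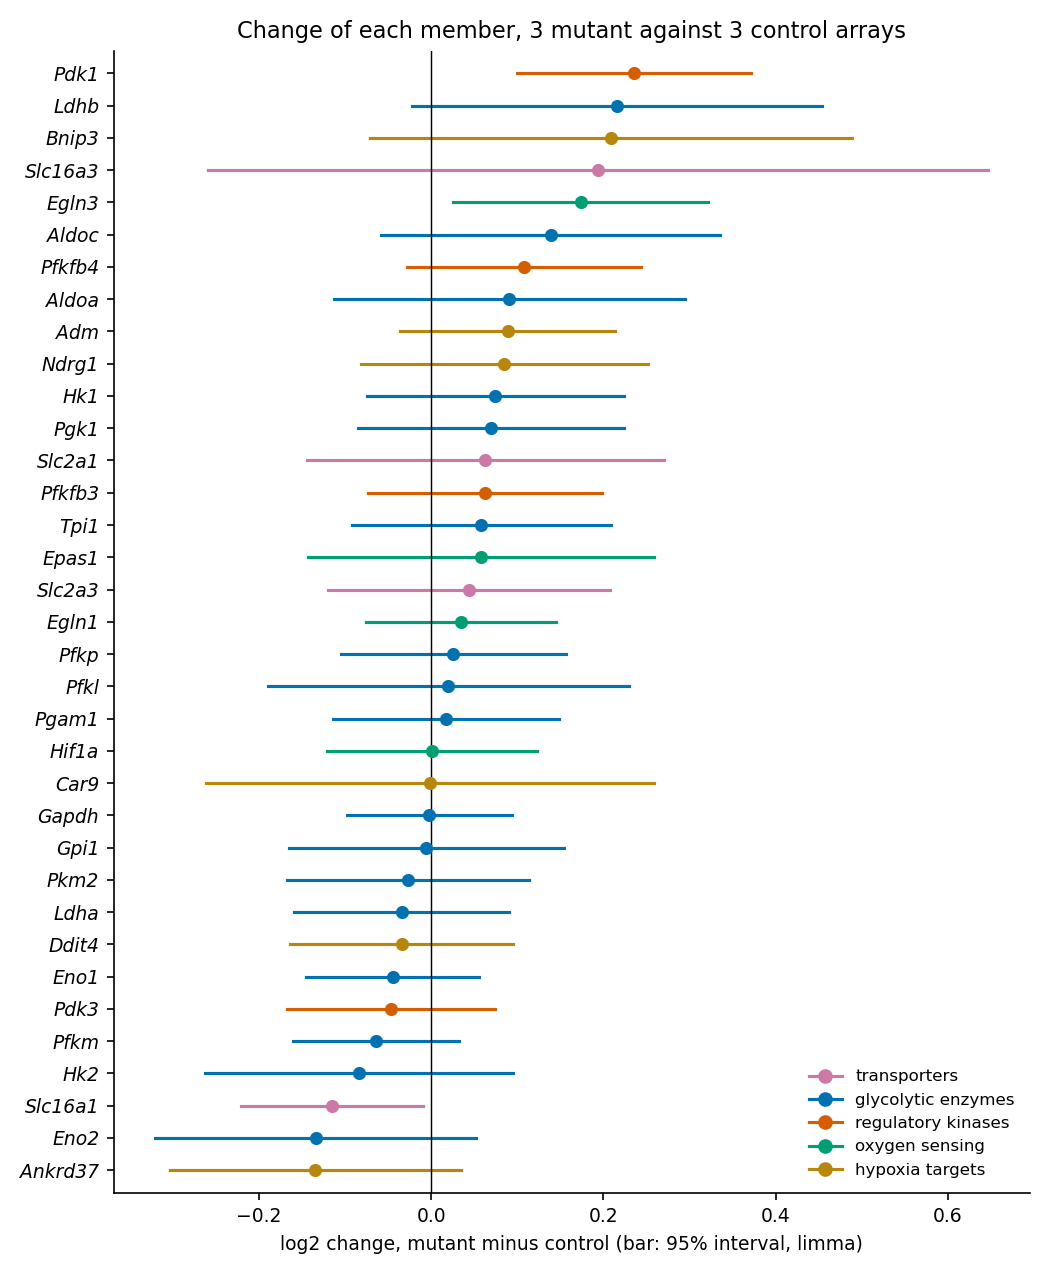
Log2 change (horizontal axis, mutant minus control) of each of the 35 genes (vertical axis), with points for the limma estimate from 3 against 3 arrays, bars for its 95% interval and colours for the gene's role. Estimates run from -0.13 to 0.24, and the intervals of Pdk1, Egln3 and Slc16a1 leave out 0 before adjustment.

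The estimates were small. The changes ran from -0.13 for Ankrd37 to 0.24 for Pdk1, and for 34 of the 35 genes the 95% interval lay within 0.5 on the log2 scale on either side of 0, a fold of 1.41 (97.1%, against 96.5% of all probe sets). The exception was the lactate exporter Slc16a3, with an interval from -0.26 to 0.65. In the same RNA the targeted genes Foxp4 and Foxp1 differed by -0.41 and -0.27, so changes of that size fall within the bound of 0.5. The median change over the 35 genes was 0.03, with 22 genes (62.9%) above 0. Over all probe sets the median was -0.02, with 41.6% above 0, and over the 14408 probe sets at or above the median level, where 32 of the 35 genes belong, it was -0.0011, with 49.5% above 0.

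Among the transporters, Slc2a1 (GLUT1) and Slc2a3 (GLUT3) take up glucose, Slc16a1 (MCT1) carries lactate in either direction, and Slc16a3 (MCT4) exports it. Slc16a1 measured 10.85, 10.92 and 10.84 in controls 1 to 3 and 10.74, 10.75 and 10.78 in mutants 1 to 3. All mutants lay below all controls, by -0.12 on average (SE 0.05, limma adjusted p = 0.385, exact permutation p = 0.1, the smallest that 3 against 3 values allow). Slc16a3 measured 9.61, 9.79 and 9.88 in controls and 10.26, 10.14 and 9.45 in mutants. Mutants 1 and 2 were thus above every control and mutant 3 below every control, and the change of 0.19 (SE 0.20, limma adjusted p = 0.723) lay within that spread. Slc2a1 had the same layout, with 11.75, 11.72 and 11.77 in controls and 11.99, 11.82 and 11.62 in mutants (log2 change 0.06, limma adjusted p = 0.806). Slc2a3 differed by 0.04 (limma adjusted p = 0.828).

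The 17 glycolytic enzymes did not shift as a group. Their median change was 0.02, with 9 of 17 above 0. Of the hexokinases, which trap glucose as glucose 6-phosphate, Hk1 differed by 0.07 and Hk2 by -0.08 (limma adjusted p = 0.677 and 0.696). The isomerase Gpi1 had a change of -0.0059. The phosphofructokinases catalyse the committed step, and their subunits differed by 0.02 (Pfkl), -0.06 (Pfkm) and 0.03 (Pfkp). Pfkm, the muscle-type subunit, was measured very evenly, at 10.27, 10.30 and 10.27 in controls and 10.23, 10.22 and 10.21 in mutants. Its groups did not overlap, yet the difference was small and did not pass (SE 0.04, limma adjusted p = 0.578, exact permutation p = 0.1).

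Of the aldolases, which split fructose 1,6-bisphosphate, Aldoc measured 8.60, 8.65 and 8.48 in controls and 8.89, 8.66 and 8.60 in mutants. Mutant 1 was the highest and mutant 3 lay among the controls, and the change of 0.14 did not pass (SE 0.08, limma adjusted p = 0.556, exact permutation p = 0.3). Aldoa had a change of 0.09, and the triose phosphate isomerase Tpi1 one of 0.06. Gapdh, a common reference gene, had a change of -0.0021 (limma adjusted p = 0.989). Phosphoglycerate kinase, encoded by Pgk1, had a change of 0.07, or 0.06 without control 3. The mutase Pgam1 differed by 0.02 and the pyruvate kinase Pkm2, now named Pkm, by -0.03.

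Enolase makes phosphoenolpyruvate. Its widely expressed form Eno1 measured 13.39, 13.37 and 13.38 in controls and 13.36, 13.35 and 13.29 in mutants, groups that do not overlap and differ by -0.04 (limma adjusted p = 0.710). Of the 3 Eno1 probe sets, 1 had a change above 0, at 0.03, with groups that overlapped (limma adjusted p = 0.838). Eno2, the form of neurons and neuroendocrine cells, measured 7.84, 7.55 and 7.68 in controls and 7.64, 7.51 and 7.51 in mutants. Control 1 was the highest and the groups overlapped (log2 change -0.13, SE 0.08, limma adjusted p = 0.547, exact permutation p = 0.2). The part of cell composition in the Eno2 values was not tested.

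Lactate dehydrogenase interconverts pyruvate and lactate, and its subunits A and B are encoded by Ldha and Ldhb. Ldha was bright, with a change of -0.03 (limma adjusted p = 0.825). It measured 13.46, 13.47 and 13.49 in controls and 13.50, 13.47 and 13.35 in mutants. The controls were even, while mutant 3 lay below every control. Ldhb measured 9.96, 10.30 and 10.38 in controls and 10.47, 10.38 and 10.44 in mutants, a change of 0.22 (SE 0.10, limma adjusted p = 0.460, exact permutation p = 0.1). Control 1 was low, control 3 all but met mutant 2, and without control 1 the change was 0.09. A second, dimmer Ldhb probe set read 10.22, 10.09 and 10.12 in controls against 10.19, 10.28 and 10.19 in mutants, where the groups overlapped (log2 change 0.08, limma adjusted p = 0.605).

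The largest difference of the list was that of Pdk1, a kinase that switches off pyruvate dehydrogenase and so keeps pyruvate out of the mitochondria. Pdk1 measured 9.84, 9.91 and 9.97 in controls and 10.17, 10.20 and 10.06 in mutants. The lowest mutant lay above the highest control, and the mean was 9.91 ± 0.06 in controls and 10.14 ± 0.08 in mutants (SD, n = 3 each). The change of 0.24 (SE 0.06, 95% interval 0.10 to 0.37, 1.18-fold) missed the threshold (limma adjusted p = 0.180, exact permutation p = 0.1), and the authors' deposited table gives it a q of 8.04%. The related Pdk3, on the X chromosome, had a change of -0.05 (limma adjusted p = 0.748), or -0.09 without control 3.

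Pfkfb3 and Pfkfb4 make fructose 2,6-bisphosphate, the strongest activator of phosphofructokinase. Pfkfb4 measured 8.34, 8.39 and 8.44 in controls and 8.60, 8.46 and 8.44 in mutants. Mutant 1 was the highest, mutant 3 fell among the controls, and the change was 0.11 (SE 0.06, limma adjusted p = 0.512, exact permutation p = 0.2). Pfkfb3 had a change of 0.06 (limma adjusted p = 0.702).

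The oxygen-sensing genes comprise the factor subunits Hif1a and Epas1 (HIF-2 alpha) and the prolyl hydroxylases Egln1 (PHD2) and Egln3 (PHD3), which mark these subunits for destruction. Egln3, itself a known HIF target, measured 10.48, 10.39 and 10.30 in controls and 10.66, 10.52 and 10.52 in mutants. All mutants were above all controls (log2 change 0.17, SE 0.06, limma adjusted p = 0.353, exact permutation p = 0.1). Egln1 had a change of 0.03. Hif1a had one of 0.0011 (95% interval -0.12 to 0.12). Epas1 measured 10.18, 10.14 and 9.86 in controls, 10.13 to 10.16 in mutants 1 and 2 and 10.06 in mutant 3. Control 3 was thus the low value (log2 change 0.06, limma adjusted p = 0.816). Epas1 lies on the chromosome of Foxp4, and Slc2a3, Hk2, Tpi1, Gapdh, Eno2 and Ldhb lie on that of Foxp1. The part of these locations in the values was not tested. HIF activity is set mainly through protein stability, which these RNA values do not measure.

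The remaining 6 genes are known to be induced when oxygen falls. Bnip3, a mitochondrial protein that promotes mitophagy, measured 10.52, 10.46 and 10.58 in controls and 11.01, 10.68 and 10.49 in mutants. Mutants 1 and 2 exceeded all controls and mutant 3 did not, and the change of 0.21 (SE 0.12) did not pass (limma adjusted p = 0.536, exact permutation p = 0.3). Its second probe set showed the same layout, with 10.07, 10.01 and 10.08 in controls and 10.35, 10.28 and 10.05 in mutants (log2 change 0.17, limma adjusted p = 0.434). The ankyrin repeat gene Ankrd37 went the other way, with 8.44, 8.64 and 8.43 in controls and 8.45, 8.29 and 8.36 in mutants. The groups overlapped through mutant 1 (log2 change -0.13, SE 0.07, limma adjusted p = 0.509, exact permutation p = 0.3). Adm, which encodes the vasodilator peptide adrenomedullin, measured 7.13, 7.21 and 7.12 in controls and 7.26, 7.17 and 7.30 in mutants (log2 change 0.09, SE 0.05, limma adjusted p = 0.554, exact permutation p = 0.2). Mutant 2 fell below control 2, and the gene is dim, at percentile 34.3 of all probe sets.

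The stress-response gene Ndrg1 had a change of 0.09 (limma adjusted p = 0.670), and the mTOR inhibitor Ddit4 one of -0.03 (limma adjusted p = 0.832). Car9, a carbonic anhydrase of the cell surface, is often used as a marker of hypoxic tissue. It stood at percentile 37.1 of all probe sets with controls from 7.09 to 7.58 and mutants from 7.31 to 7.38, a change of -0.0015 (95% interval -0.26 to 0.26). Its mutant values all lay within the range of the controls. A response could be missed where a probe set has little signal, and no detection values were used.

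The promoters of the genes were also scanned for the HIF core motif. Of the 32 genes with an entry in the RefSeq promoter table (GRCm38.p6), 29 (90.6%) held ACGTG or GCGTG, or on the other strand CACGT or CACGC, in the 250 bases before a transcript start, against 41.5% of 27025 genes. A gene counted if any of its windows held a match, and the list was itself named for glycolysis and the response to low oxygen. By window the shares were 37 of 45 (82.2%) and 38.6% of 32851. The median GC content was 61.6% in the windows of these genes and 52.4% in all windows, and the part of base composition in the share was not tested, since each motif holds a CpG. The 4 windows printed here belong to Pdk1 and Slc16a1, whose groups did not overlap in opposite directions, and to Slc16a3 and Bnip3, which varied most between mutants. Capitals mark the motif letters on either strand, CACGTG being a match on both strands, and each run reads 5′ to 3′ along the gene's strand. The windows lie at chr2:71872974-71873223 (plus strand, the upstream of 2 listed starts of Pdk1), chr3:104638414-104638663 (plus), chr11:120948817-120949066 (plus) and chr7:138909507-138909756 (minus).
Pdk1: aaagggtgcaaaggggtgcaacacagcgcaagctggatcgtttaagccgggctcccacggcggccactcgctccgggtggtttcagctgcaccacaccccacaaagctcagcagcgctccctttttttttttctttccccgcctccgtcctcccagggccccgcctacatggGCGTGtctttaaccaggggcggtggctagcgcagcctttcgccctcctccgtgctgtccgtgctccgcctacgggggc
Slc16a1: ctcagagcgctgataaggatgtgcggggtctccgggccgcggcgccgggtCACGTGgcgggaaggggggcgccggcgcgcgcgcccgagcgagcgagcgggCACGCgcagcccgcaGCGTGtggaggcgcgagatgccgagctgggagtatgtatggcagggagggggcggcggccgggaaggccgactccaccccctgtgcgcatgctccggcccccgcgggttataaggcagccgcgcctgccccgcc
Slc16a3: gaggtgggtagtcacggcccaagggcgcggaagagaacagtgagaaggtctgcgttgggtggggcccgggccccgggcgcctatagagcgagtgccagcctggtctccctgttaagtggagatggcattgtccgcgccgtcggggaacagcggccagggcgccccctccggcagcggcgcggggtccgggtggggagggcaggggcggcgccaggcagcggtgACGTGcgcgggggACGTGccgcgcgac
Bnip3: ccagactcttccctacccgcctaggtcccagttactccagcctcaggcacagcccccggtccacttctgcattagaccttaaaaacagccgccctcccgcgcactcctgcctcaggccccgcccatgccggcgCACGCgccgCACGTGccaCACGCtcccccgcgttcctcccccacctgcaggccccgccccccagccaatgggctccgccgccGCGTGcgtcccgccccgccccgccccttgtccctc
Pdk1 held 1 marked place, Slc16a1 held 3, Slc16a3 held 2 and Bnip3 held 4. A match describes letters and shows no binding. Any relation between the number of marked places and the change was not tested. Among the 3 genes without a match were Tpi1, Gpi1 and Eno2.

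**Figure D2:**
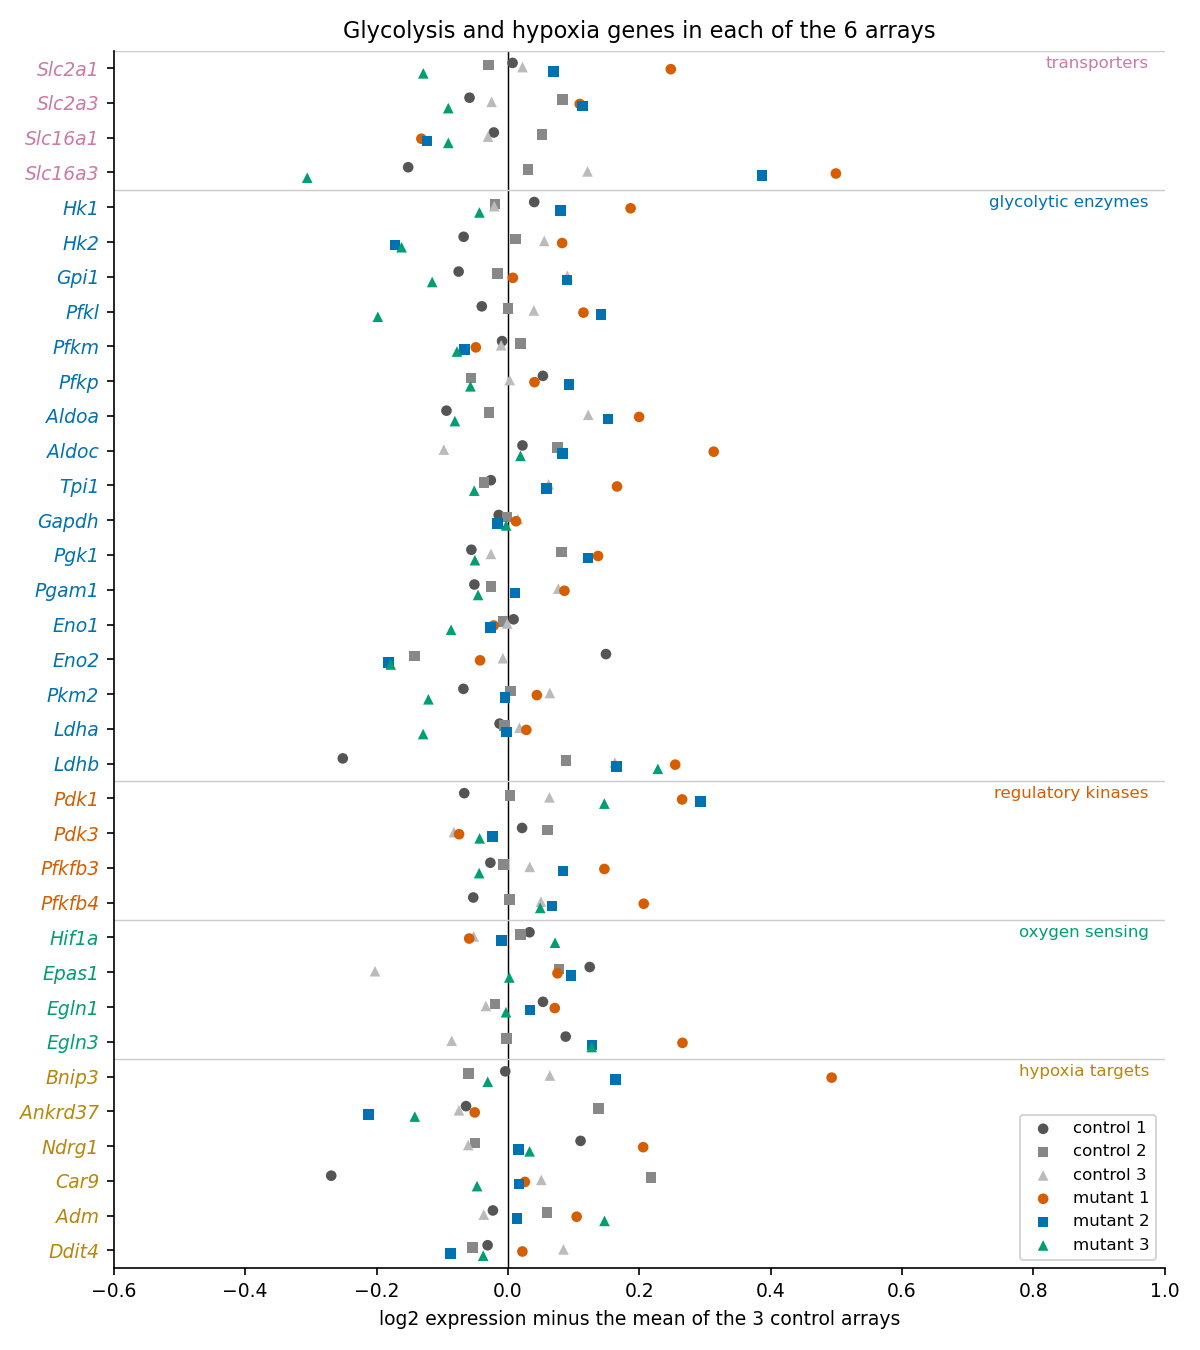
Log2 expression of each of the 35 genes (vertical axis, grouped by role) in each of the 6 arrays, as the difference from the mean of the 3 controls (horizontal axis). Grey symbols are controls and coloured symbols mutants, and mutant 1 is the highest of the 6 arrays for 17 genes while mutant 3 is the lowest for 13.

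The mutant embryos differed among themselves somewhat more than the controls did: the median range over the 35 genes was 0.157 for the 3 mutant values and 0.128 for the 3 control values, against 0.119 and 0.128 over 1 probe set per gene symbol. Mutant 1 was the highest of the 6 arrays for 17 of the 35 genes, 48.6% against 16.3% of all probe sets. Mutant 3 was the lowest for 13 genes, 37.1% against 21.1%. Mutant 1 lay above mutant 3 for 31 genes, 88.6% against 58.3% of all probe sets, with Slc16a1, Pdk3, Hif1a and Adm as the exceptions. The SD of the mutants exceeded that of the controls for 22 genes, 62.9% against 46.5%. These counts were chosen after the values were seen and describe 2 embryos of 1 genotype, with no test.

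The distance from mutant 1 to mutant 3 was longest for Slc16a3 (0.80), Bnip3 (0.52), Slc2a1 (0.38) and Pfkl (0.31), and its median over the 35 genes was 0.14, against 0.03 over 1 probe set per gene symbol. Pfkl measured 10.88, 10.92 and 10.96 in controls and 11.04, 11.06 and 10.72 in mutants, so that mutant 3 alone lay below the controls. For Slc2a1 and Pfkl the 3 controls spanned only 0.05 and 0.08. Without mutant 3, the groups did not overlap for 17 of the 35 genes, 48.6% against 26.8% of all probe sets, among them Slc2a1, Slc2a3, Slc16a3, Hk1, Pfkl, Aldoa, Aldoc, Pgk1, Pfkfb3 and Bnip3. Mutant 3 was singled out for its low values in these same genes. The higher count without it follows in part from that choice and is no evidence of a mutant effect. Limma without mutant 3 still called 0 of the 35, with changes of 0.44 for Slc16a3, 0.33 for Bnip3 and 0.16 for Slc2a1. Without mutant 1 it also called 0, and the same changes were 0.04, 0.07 and -0.03. Without mutant 2 the change of Slc16a3 was 0.10, and without control 1 it was 0.12. Without any other single array, 7 to 9 of the 35 genes had groups that did not overlap, against 24.4% to 33.4% of all probe sets.

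**Figure D3:**
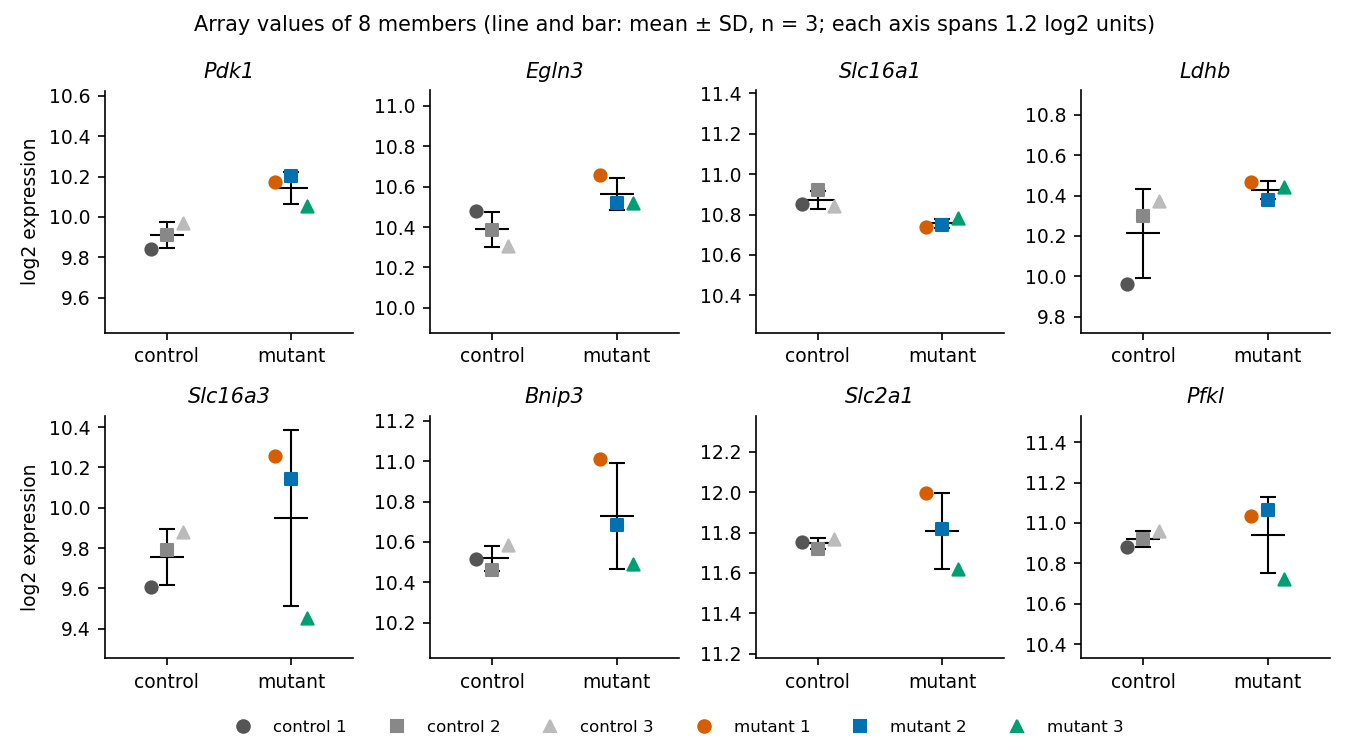
Log2 expression (vertical axes, 1.2 log2 units each) of 8 genes in the 3 control and 3 mutant arrays, with the mean and SD as line and bar. In the upper row the groups do not overlap for any of Pdk1, Egln3, Slc16a1 and Ldhb, and in the lower row mutants 1 and 2 lie above the controls for Slc16a3, Bnip3, Slc2a1 and Pfkl while mutant 3 lies among or below them.

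Set against the mean over the 6 arrays, the median deviation of the 35 genes was 0.08 in mutant 1, 0.02 in mutant 2 and -0.06 in mutant 3, and between -0.03 and 0.0022 in the controls. The glycolytic enzymes and the transporters had medians of -0.08 and -0.14 in mutant 3 and 0.08 and 0.15 in mutant 1. In mutant 3 the regulatory kinases, oxygen-sensing genes and hypoxia targets lay nearer to the mean, at -0.01, 0.01 and -0.03. In mutant 1 the same roles were at 0.13, 0.05 and 0.05. For 1 probe set per gene symbol the medians of the 6 arrays stayed between -0.02 and 0.01. Epithelial markers deviated by 0.08 in mutant 1 and -0.02 in mutant 3, mesenchymal markers by 0.05 and -0.05, and the 3 mesothelial markers by 0.05 and -0.13. Erythroid markers moved more, by -0.35 in mutant 1, 0.33 in mutant 2 and -0.21 in mutant 3. The part of cell composition in these differences was not tested.

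**Figure D4:**
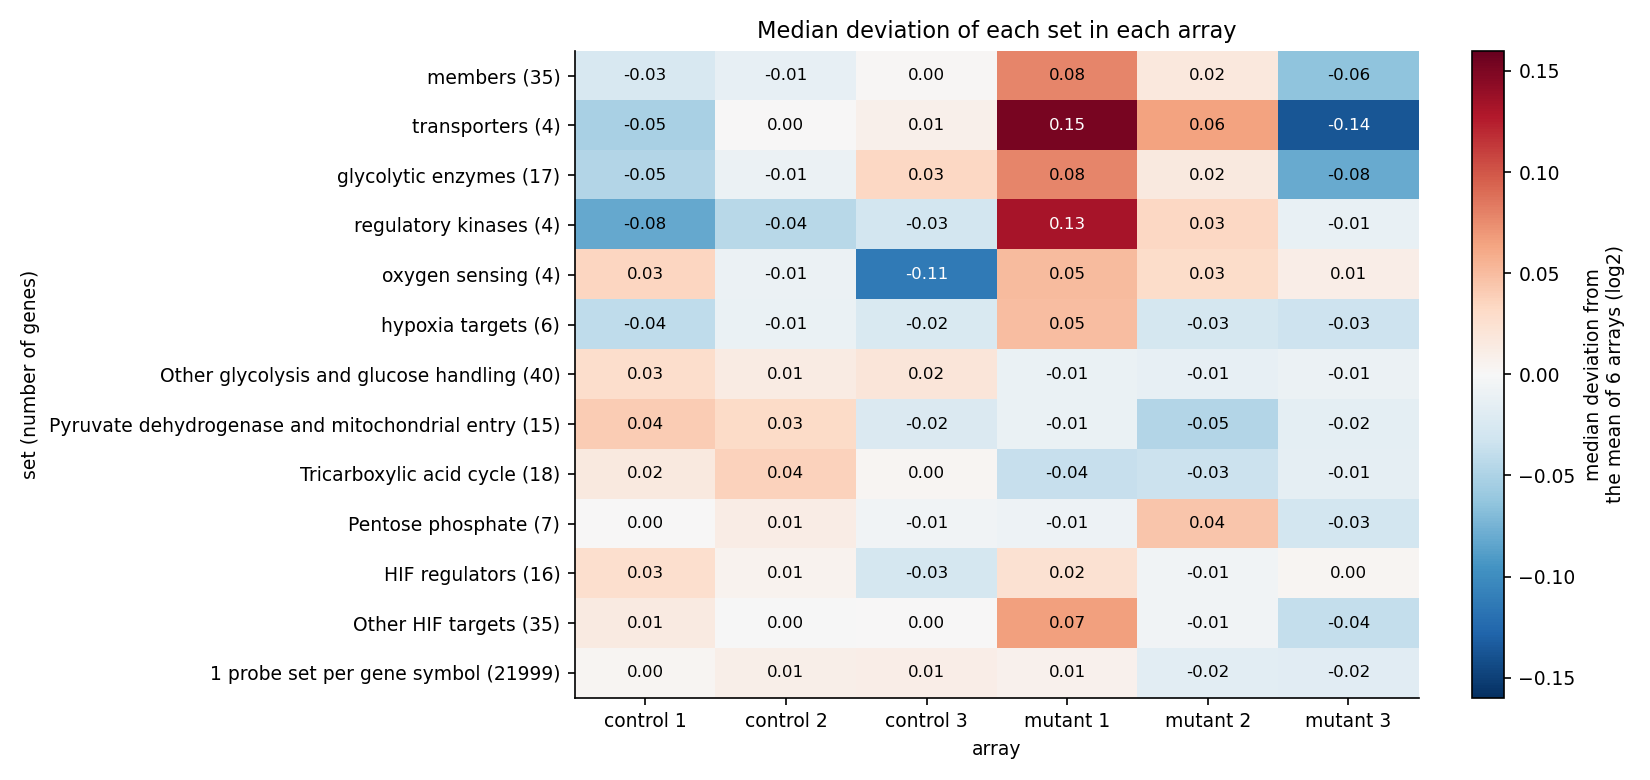
Median deviation from the mean of the 6 arrays (colour and printed value, log2) for the 35 genes, their roles, the other pathway lists and 1 probe set per gene symbol (rows), in each array (columns). The row of all 35 genes runs from -0.06 in mutant 3 to 0.08 in mutant 1, and the other HIF targets run from -0.04 to 0.07 in the same arrays.

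Limma also called none of the other genes measured in the same pathways. Across 6 lists with 131 measured genes, 0 had an adjusted p under 0.05, beside 0.774% of all probe sets. At an unadjusted p under 0.05 there were 18 (13.7%, against 11.8% of all probe sets). Groups did not overlap for 30 of the 131 (22.9%, against 18.0% of all probe sets). Of these genes 46 (35.1%) lay above 0, a lower share than the 62.9% of the 35 genes and the 41.6% of all probe sets. Among 35 other HIF targets the median change was -0.01, with 16 above 0. Of these, Hmox1, a heme-degrading enzyme, measured 9.71, 9.76 and 9.64 in controls and 9.84, 9.91 and 10.04 in mutants (log2 change 0.23, limma adjusted p = 0.234). Epo, the erythropoietin gene, had a change of -0.21 (limma adjusted p = 0.276) at a dim level. Vegfa, the vascular growth factor whose induction by HIF is best known, differed by 0.02 (limma adjusted p = 0.928). Mutant 1 lay above mutant 3 for 26 of these 35 targets, where 58.3% of all probe sets had that order. It did so for 24 of 40 other glycolysis genes, 10 of 16 HIF regulators and 9 of 18 tricarboxylic acid cycle genes. For pyruvate dehydrogenase and mitochondrial entry it was 6 of 15, and for pentose phosphate 4 of 7. Among 16 regulators of HIF the median was -0.0037, with 7 above 0, and the smallest p values were those of the transactivation inhibitor Cited2 (log2 change 0.09, limma adjusted p = 0.477) and of Hif1an, the asparaginyl hydroxylase FIH (0.08, 0.531).

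The lists of mitochondrial and side pathways are set beside all probe sets, which had a median of -0.02 with 41.6% above 0. For the probe sets at or above the median level these were -0.0011 and 49.5%. Except for pentose phosphate, these lists had smaller shares above 0 than either, and no test was made of any list. Of 18 tricarboxylic acid cycle genes 4 lay above 0, with a median of -0.03, and groups did not overlap for 6 (33.3%, beside 18.0% of all probe sets). The succinyl-CoA ligase subunit Suclg2 measured 11.27, 11.23 and 11.14 in controls and 11.07, 10.96 and 11.04 in mutants (log2 change -0.19, limma adjusted p = 0.236). Sdha, the flavoprotein of succinate dehydrogenase, had a change of -0.15 (limma adjusted p = 0.273). Of 15 genes of pyruvate dehydrogenase and mitochondrial entry 4 lay above 0 (median -0.05), with the phosphatase Pdp2, which opposes the Pdk kinases, at -0.12 (limma adjusted p = 0.348) and the complex subunit Pdha1 at -0.11 (0.486). Of 40 other genes of glycolysis and glucose handling 11 lay above 0 (median -0.02). The transporter Slc2a10 differed by -0.26 (limma adjusted p = 0.225) and the muscle enolase Eno3 by 0.15 (limma adjusted p = 0.237). Eno3 measured 9.35, 9.30 and 9.32 in controls and 9.48, 9.49 and 9.45 in mutants, so its groups did not overlap. The authors' deposited table gives Eno3 a q of 4.67%, which is under 5%, and Slc2a10 one of 11.6%. Of 7 pentose phosphate genes 4 lay above 0 (median 0.01), with the dehydrogenase Pgd at 0.11 (limma adjusted p = 0.419) and the isomerase Rpia at -0.07 (0.597).

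**Figure D5:**
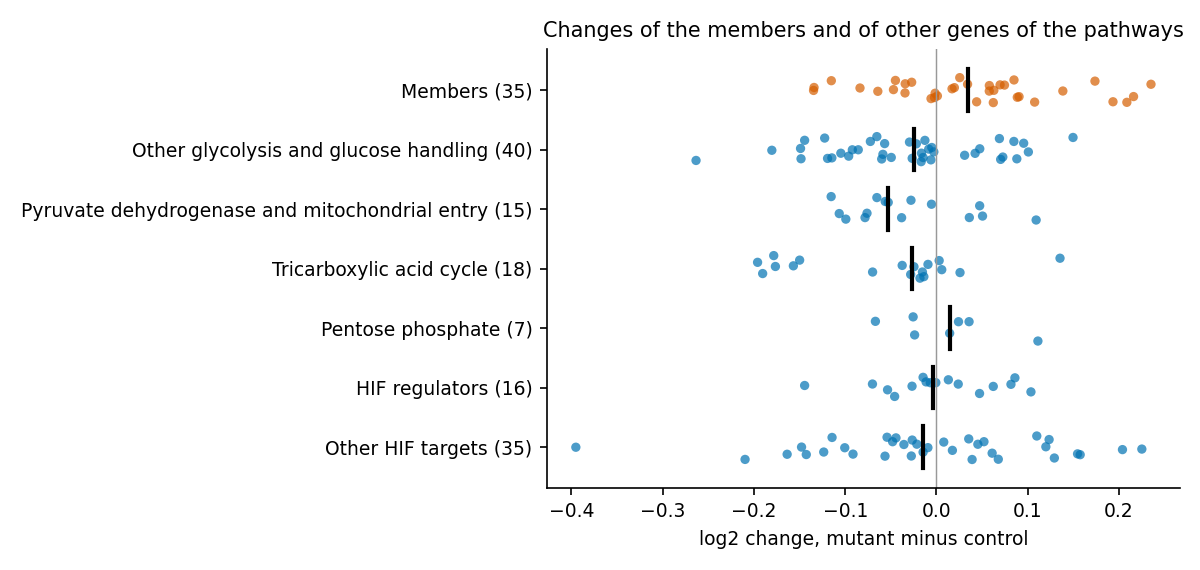
Log2 change, mutant minus control (horizontal axis), of each gene in the 35-gene list and in 6 other pathway lists (rows, with the number of genes), with a black line at each median. Medians run from -0.05 for pyruvate dehydrogenase and mitochondrial entry to 0.03 for the 35 genes.

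Several of the 35 genes have near-identical copies in the mouse genome, and 7 symbols were carried by more than 1 probe set, 85 probe sets in all. Gapdh alone had 42, which gave 35 distinct sets of values, with changes from -0.01 to 0.06 and limma adjusted p from 0.628 to 0.997. Eno1 had 3 probe sets with changes from -0.05 to 0.03, so its direction was not settled. Gpi1 had 2, at -0.0059 and 0.02. Those of Pgk1, Pgam1, Ldhb and Bnip3 each shared a sign. Which of these probe sets also hybridise to transcripts of such copies was not tested.

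Marker lists gave the surroundings of these values. Summed on the linear scale, the 8 epithelial markers reached 21501 to 24386.5 in controls and 24512.7 to 25726.4 in mutants, with 0 of 8 called and a median change of 0.05. Without Sftpc, a surfactant gene at 12.43 to 12.85 in controls and 13.02 to 13.10 in mutants, the sums overlapped, at 15692.4 to 17018.2 and 15952.1 to 16954.4. The 6 mesenchymal markers reached 19301.8 to 19883.3 and 17854.4 to 19671.4, with 0 called, and the 5 endothelial markers 17087.2 to 18114.5 and 17705.4 to 18551.3, with 0 called. The 7 erythroid markers reached 29829.9 to 32576.2 in controls and 25325.4 to 34294 in mutants. The 3 mesothelial markers reached 2455.37 to 2680.15 in controls and 2231.1 to 2536.49 in mutants, the 4 macrophage markers 2198.94 to 2403.78 and 2377.39 to 2418.22, and the 5 skeletal muscle markers 1209.99 to 1383.9 and 1204.03 to 1275.99, with 0 called in each. The 3 mast cell markers reached 450.087 to 569.028 in controls and 1006.45 to 1115.67 in mutants, with 2 called. The marker not called, Cma1, was dim, at percentile 21.8 of all probe sets. Its groups overlapped (log2 change 0.11, limma adjusted p = 0.652). The part of these lists in the values of the 35 genes was not tested.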

How the data were processed

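Expression was measured on 6 arrays of whole embryonic lung, 3 control and 3 mutant. Per the labels' protocols, RNA was reverse transcribed from a poly(T) primer with a T7 promoter, amplified and labelled with biotin. The deposited values are log2 expression from RMA, which the submitters' processing notes name. Array type, build and the authors' test are not stated in the labels or headers. The deposited table with annotation holds the authors' own comparison, and per the file headers it gives a signed fold, a p-value without adjustment and a q-value as a percentage. Its array values equal those of the matrix table for all 28815 probe sets. The 3 arrays per group limit the precision.

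Mutant and control were compared with limma 3.58.1 in R 4.3.3 (lmFit, eBayes, 2-sided, no covariate, no filter), p-values being adjusted by Benjamini-Hochberg across the 28815 probe sets (threshold 0.05). Intervals are at 95%. Exact permutation tests (2-sided, 3 against 3) used scipy 1.17.1. All 35 genes are named, the 10 with the smallest p in full, and from each pathway list the 2 with the smallest p. Slc16a3, Slc2a1, Pfkl, Pfkm, Eno1, Epas1, Car9 and Vegfa were given in more detail after their values were seen. The genes and lists were chosen with earlier results of these data known. Of the other HIF targets, 35 of 36 were measured. Of the marker lists, 1 is not reported here. The fit was tested on simulated data.

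Alternatives were the replicate block, other priors, filters, normalizations, array weights, other probe set rules, a threshold of 0.1 and leaving out each array. Equal replicate numbers were checked for pairing: the deviations of same-numbered arrays correlated at -0.19, 0.04 and -0.19, so the numbers were not taken to pair the embryos. Promoter sequences come from RefSeq, of which the 250 bases before the start were used. Figures were drawn with matplotlib 3.10.9.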

Additional observations from a re-analysis of the deposited data

How the results depend on the processing

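Of the 35 genes 0 were called under every alternative run except array weights, which called 2, Pdk1 (log2 change 0.23, limma adjusted p = 0.0282) and Slc16a1 (-0.16, limma adjusted p = 0.0468). That fit gave control 2 a weight of 9.20 against 0.40 to 0.92 for the other arrays and called 1748 probe sets in all, where the main fit called 223. Over the other alternatives the limma adjusted p of Pdk1 was 0.0980 (eBayes with trend and robust) to 0.465 (without control 2). Without mutant 1 the change was 0.05 for Aldoc, and without control 1 it was -0.06 for Eno2. With the replicate number as a block 0 of the 35 were called and 7 probe sets in all. The median change of the 35 genes was 0.01 to 0.07 without 1 array, and 0.0088 to 0.04 in the other alternatives. Without 1 array, groups did not overlap for 7 to 17 of the 35 genes. The highest count was that without mutant 3, 48.6% of the genes against 26.8% of all probe sets. As mutant 3 was often the lowest array in these same genes, that count is not independent of the choice. For the other arrays left out, the shares of all probe sets are given above beside the counts. 21 genes kept their sign in every setting and 14 did not. With array weights the sign turned for Slc2a3 (-0.037), Gpi1 (0.0038), Pgk1 (-0.0092), Hif1a (-0.0095), Epas1 (-0.014) and Ddit4 (0.0088), with the mean of all probe sets for Gpi1 (0.0070) and Gapdh (0.019), and for Car9 with quantile normalization (0.028) and cyclic loess (0.040). Leaving out 1 array gave -0.030 to 0.16 for Slc2a1, -0.054 to 0.049 for Gpi1, -0.042 to 0.13 for Pfkl, -0.0083 to 0.067 for Pfkp, -0.0094 to 0.0054 for Gapdh, -0.017 to 0.055 for Pgam1, -0.063 to 0.020 for Pkm2, -0.065 to 0.013 for Ldha, -0.034 to 0.031 for Hif1a, -0.043 to 0.12 for Epas1, -0.14 to 0.11 for Car9 and -0.063 to 0.0079 for Ddit4. The cause of these turns was not tested.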

Other observations

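Among the other HIF targets the matrix cross-linking enzyme Loxl2 had the lowest change, -0.40 (SE 0.28, limma adjusted p = 0.615). It measured 10.58, 10.57 and 10.56 in controls and 10.45, 9.41 and 10.67 in mutants. Mutant 2 lay far below the other 5 arrays, while mutant 1 was slightly below and mutant 3 above the controls.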
